A study of Bos taurus with 24 samples.

Results

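The mitochondrial genome transcripts were taken as the counts of all genes that the deposited bovine count table places on the mitochondrial chromosome, MT. These are 37 of 27607 genes, chosen by chromosome and not by level: 13 protein-coding, 2 rRNA and 22 tRNA genes. The 24 libraries hold RNA of bovine granulosa cells, the somatic cells that surround the oocyte in its follicle. There were 4 libraries of granulosa cells of secondary follicles, which have no fluid-filled cavity yet (secondary_GC). Early antral follicles gave 5 libraries of cumulus cells, which lie against the oocyte (early_CC), and 5 of mural granulosa cells, which line the follicle wall (early_MGC). Late antral follicles gave 5 of each in the same way (late_CC and late_MGC). The study asked which of these cells can rebuild their contacts with oocytes that had been stripped of them, and whether the transcriptome differs at the same stages. The labels give no treatment, genotype, breed, age or animal for any group, and do not say whether the cells had been cultured or pooled. They do not say either that libraries of a group came from separate animals, so p-values measure the spread between these samples, which may be technical.

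The mitochondrial genome is a small circle that every mitochondrion carries in several copies. Both of its strands are transcribed into long precursors, from which the tRNAs that lie between the other genes are cut out, freeing the rRNAs and mRNAs, most of which then receive a short poly(A) tail. All of its protein-coding genes encode membrane subunits of the respiratory chain and of ATP synthase, and its rRNAs and tRNAs serve the ribosome inside the mitochondrion that makes them. Granulosa cells feed the growing oocyte with pyruvate and other metabolites, and the mural cells turn to steroid synthesis, which begins in mitochondria.

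Levels are given as counts per 1000000 counts of a library (CPM), as percent of its counts, or, between genes, as CPM per kb of gene length. Per the labels the cDNA kit was SMART-Seq v4, which primes on poly(A), so a level also carries how far a transcript is polyadenylated. Counting ignored strand. Genes of the plus strand and those of the minus strand (ND6 and 8 tRNA genes) therefore cannot be told from transcripts of the opposite strand. Bulk RNA gives no cell numbers, so fewer cells with many mitochondria and less mitochondrial RNA per cell cannot be told apart. Coordinates are those of the table, on ARS-UCD1.2, and tRNA genes are numbered 1 to 22 along it, since the table does not pair them with an amino acid. A member was called where its adjusted p in edgeR's quasi-likelihood test was under 0.05, with Benjamini-Hochberg adjustment over all 14298 genes tested. Of the 37 members 32 were tested. The other 5, tRNA genes 4, 7, 10, 16 and 19, had too few counts, and tRNA gene 4 had 0 counts in all 24 libraries, below a limit of 3 counts over a group that comes to between 0.0244 and 0.0402 CPM.

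Total counts ran from 8379801 to 31762400 per library. Markers of granulosa cells were summed over 8 genes (FSHR, FOXL2, AMH, INHA, INHBA, CYP19A1, NR5A2 and HSD17B1). The sum averaged 1328 CPM in early_MGC and 13253 CPM in late_CC, the lowest and highest of the groups, and INHBA made up 7050 CPM of the latter. Levels of single markers differed: group means ran from 260 to 359 CPM for FSHR but from 0.512 to 2.27 CPM for FOXL2, and CYP19A1 averaged 6.57 CPM in secondary_GC. Oocyte markers summed to at most 12.2 CPM in any library (11 of 12 matched, with BMP15, FIGLA and KPNA7 at 0 in every group). Markers of blood cells summed to 1.87 to 72.2 CPM in late_CC and to at most 9.79 CPM in the other libraries (7 of 7 matched, HBB at 0 in every group). The late_CC sum was nearly all HBA, an alpha globin, at a mean of 43.1 of 43.9 CPM, while PTPRC was at 0 in late_CC and LYZ, CD3E and CD14 averaged at most 0.0484 and CD68 0.687 CPM there. 3 libraries stood apart from their groups in an earlier account of these data, and results that rest on them are given with and without them. In late_MGC 3 the granulosa markers summed to 377 CPM against 4611 to 7379.7 in the rest of its group, and 9 theca and stroma markers to 2232 CPM against 205 to 368. In late_CC 3 the granulosa markers summed to 2646 CPM against 11029 to 18906, and in early_MGC 4 to 975 CPM against 1276 to 1622. Theca and stroma markers were not confined to late_MGC 3. Their sum ran from 187.9 to 762.6 CPM in early_CC. It was 150.4 CPM in late_CC 3 and 502.7 to 675.6 CPM in the rest of late_CC. The highest sum was 384.9 CPM in secondary_GC and 306.1 CPM in early_MGC. On average INSL3 held 401.9 CPM in late_CC and LUM 211.1 CPM in early_CC. Members of the list did not move together. In late_CC COL1A1 averaged 27.6 and PDGFRA 32.0 CPM, but DCN 0.793, COL1A2 0.153 and COL3A1 0.0277 CPM. DCN averaged 41.8 to 57.5 CPM in the other groups. CYP17A1 was at 0 in every group but late_MGC, where it averaged 0.0321 CPM. The part of these markers in the results below was not tested.

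The mitochondrial genome took the smallest share of RNA in cumulus cells of early antral follicles and larger shares in the other antral groups. The 37 genes held 5.45%, 6.28%, 6.57%, 7.24% and 5.49% of the counts in the 5 early_CC libraries. In early_MGC they held 13.7%, 20.9%, 20.02%, 36.5% and 12.5%, in late_CC 11.4%, 13.99%, 27.7%, 15.7% and 14.5%, and in late_MGC 10.3%, 21.5%, 11.7%, 14.5% and 14.02%. Each early_CC library therefore lay below each of the other 15 antral libraries. The 4 secondary_GC libraries held 7.32%, 13.97%, 19.3% and 5.15%, a spread that takes in all of early_CC and reaches into the other groups. Group means were 11.4% ± 6.46 (SD, n = 4) in secondary_GC, 6.21% ± 0.759 (n = 5) in early_CC, 20.7% ± 9.58 in early_MGC, 16.7% ± 6.395 in late_CC and 14.4% ± 4.31 in late_MGC. In order the means run early_CC, secondary_GC, late_MGC, late_CC and early_MGC. Apart from early_CC against the 3 other antral groups, no neighbours in this order are separated, since the libraries of secondary_GC, late_MGC, late_CC and early_MGC overlap. The library early_MGC 4 had the highest share of all, and late_CC 3 the highest of its group. Without them the means were 16.8% in early_MGC and 13.9% in late_CC, and early_CC still lay below every library of both. In 4 of the 5 groups the library with the most counts had the lowest share (late_CC is the exception). Between groups depth differed too: early_CC libraries had 19596862 to 31762400 counts and secondary_GC 10001810 to 30172169. The range was 8379801 to 21455169 in early_MGC, 14195614 to 20353473 in late_CC and 16547420 to 28757749 in late_MGC. The part of depth in the shares was not tested.

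**Figure D1:**
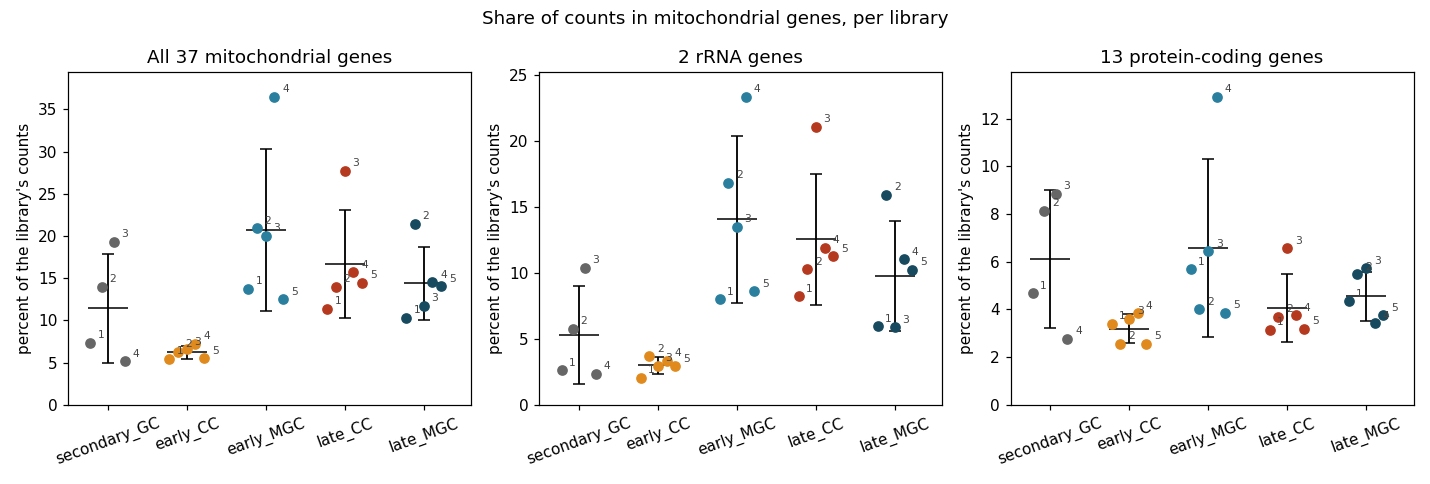
Percent of a library's counts that fell in all 37 mitochondrial genes, in the 2 rRNA genes and in the 13 protein-coding genes, by group. Each dot is 1 library with its number, and bars mark the group mean ± SD. The 5 early_CC libraries sit between 5.45% and 7.24% in the panel of all 37 genes, below every library of the other antral groups.

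Most of the difference between early_CC and the other antral groups lay in the rRNAs. The 2 rRNA genes held 2.99% ± 0.618 of counts in early_CC, 5.27% ± 3.73 in secondary_GC, 9.7998% ± 4.17 in late_MGC, 12.6% ± 4.97 in late_CC and 14.1% ± 6.36 in early_MGC. The 13 protein-coding genes spanned a narrower range, from 3.19% ± 0.601 in early_CC through 4.06% ± 1.42 in late_CC, 4.54% ± 1.02 in late_MGC and 6.11% ± 2.88 in secondary_GC to 6.58% ± 3.72 in early_MGC. The tRNA genes held 0.0316% ± 0.00965 of counts in early_CC and 0.0921% ± 0.07403 in early_MGC, the lowest and highest group means. Counted against the protein-coding genes, the rRNAs stood at 0.821 ± 0.261 counts per protein-coding count in secondary_GC and 0.975 ± 0.323 in early_CC, and at 2.25 ± 0.984 in late_MGC, 2.35 ± 1.09 in early_MGC and 3.07 ± 0.368 in late_CC.

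The shorter rRNA (12S, from 431 to 1385 on MT, plus strand) belongs to the small subunit of the mitochondrial ribosome, and the longer one (16S, 1453 to 3023, plus strand) to the large subunit. The 16S rRNA held 0.949%, 2.19%, 4.71% and 0.928% of counts in secondary_GC, 0.8705%, 1.71%, 1.15%, 1.46% and 1.31% in early_CC and 4.91%, 10.8%, 8.34%, 13.3% and 5.25% in early_MGC. In the late antral groups it held 5.16%, 6.97%, 14.2%, 7.79% and 7.68% in late_CC and 3.05%, 8.92%, 3.33%, 6.06% and 5.31% in late_MGC. All early_CC libraries lay below all libraries of the other antral groups, and all early_MGC libraries lay above all of secondary_GC. The 12S rRNA held 1.67%, 3.55%, 5.66% and 1.42% in secondary_GC, 1.17%, 1.97%, 1.79%, 1.89% and 1.61% in early_CC, 3.104%, 6.09%, 5.16%, 10.04% and 3.35% in early_MGC, 3.06%, 3.31%, 6.92%, 4.13% and 3.58% in late_CC and 2.89%, 7.002%, 2.56%, 4.98% and 4.903% in late_MGC. Its early_CC values were again below those of each other antral library, but its secondary_GC and early_MGC values overlapped.

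The 2 rRNAs did not keep one proportion. Within secondary_GC the ratio of 16S to 12S counts was 0.568, 0.617, 0.832 and 0.652, and within early_CC 0.746, 0.869, 0.646, 0.773 and 0.815. In early_MGC it was 1.58, 1.77, 1.62, 1.33 and 1.57, in late_CC 1.69, 2.103, 2.05, 1.89 and 2.14, and in late_MGC 1.05, 1.27, 1.302, 1.22 and 1.08. All 9 libraries of secondary_GC and early_CC thus had fewer 16S than 12S counts and all 15 others had more, with late_MGC between the low pair of groups and early_MGC. The libraries of secondary_GC and early_CC overlap in this ratio, whereas late_MGC overlaps no other group. Of all mitochondrial counts the 12S rRNA took a similar part in each group, with means from 25.3% to 30.3%. The 16S rRNA took 17.8% ± 4.87 in secondary_GC, 20.97% ± 4.61 in early_CC, 35.8% ± 6.46 in late_MGC, 41.5% ± 6.27 in early_MGC and 49.8% ± 2.83 in late_CC. Because both genes are read in the same library, this ratio does not depend on how libraries are scaled to each other. It was not given a test, being built from members whose values were known.

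**Figure D2:**
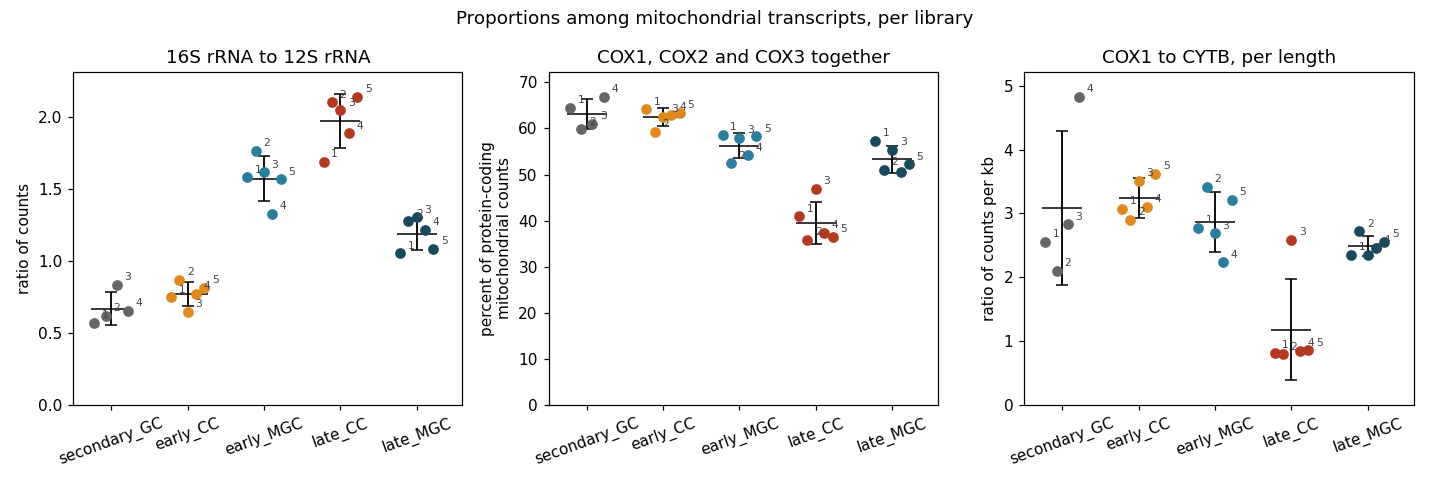
3 ratios within the mitochondrial RNA of each library: 16S to 12S rRNA counts, percent of protein-coding mitochondrial counts in COX1, COX2 and COX3, and COX1 to CYTB counts per kb. Each dot is 1 library with its number, and bars mark the group mean ± SD. The 16S to 12S ratio is below 1 in all secondary_GC and early_CC libraries, and the 5 late_CC libraries are the lowest in complex IV share, with late_CC 3 alone beside the other groups in the COX1 to CYTB ratio.

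Among the protein-coding genes, the parts of the 4 complexes had close means in secondary_GC and early_CC, and in late_CC the parts of complexes I and IV lay outside the range of all other libraries. Complex IV is cytochrome c oxidase, the step that hands electrons to oxygen, and COX1, COX2 and COX3 form its core. These 3 genes took 63.1% ± 3.27 of protein-coding mitochondrial counts in secondary_GC, 62.5% ± 1.87 in early_CC, 56.3% ± 2.79 in early_MGC and 53.3% ± 2.96 in late_MGC. In late_CC they took 40.95%, 35.9%, 46.9%, 37.4% and 36.5%, each below every library of the other groups, of which the lowest had 50.4%. Complex I, NADH dehydrogenase, is the entry of electrons from NADH, and its 7 subunits encoded here (ND1 to ND6 and ND4L) took 18.9% ± 1.64 in secondary_GC, 19.3% ± 1.42 in early_CC, 23.8% ± 1.47 in early_MGC and 24.3% ± 1.39 in late_MGC. In late_CC they took 31.4%, 37.2%, 29.3%, 34.3% and 35.5%, each above every library of the other groups. CYTB, the cytochrome b of complex III, took 14.9%, 11.7%, 6.76%, 14.2% and 13.1% in the late_CC libraries against 4.93% to 9.34% over all other libraries, so 4 of 5 late_CC libraries were above the rest and late_CC 3 was within their range. ATP6 and ATP8, in the membrane part of ATP synthase (complex V), took 10.8% ± 1.44, 11.2% ± 1.28, 12.6% ± 1.74, 14.8% ± 1.55 and 13.8% ± 2.91 in secondary_GC, early_CC, early_MGC, late_CC and late_MGC, with overlap between neighbouring groups.

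**Figure D3:**
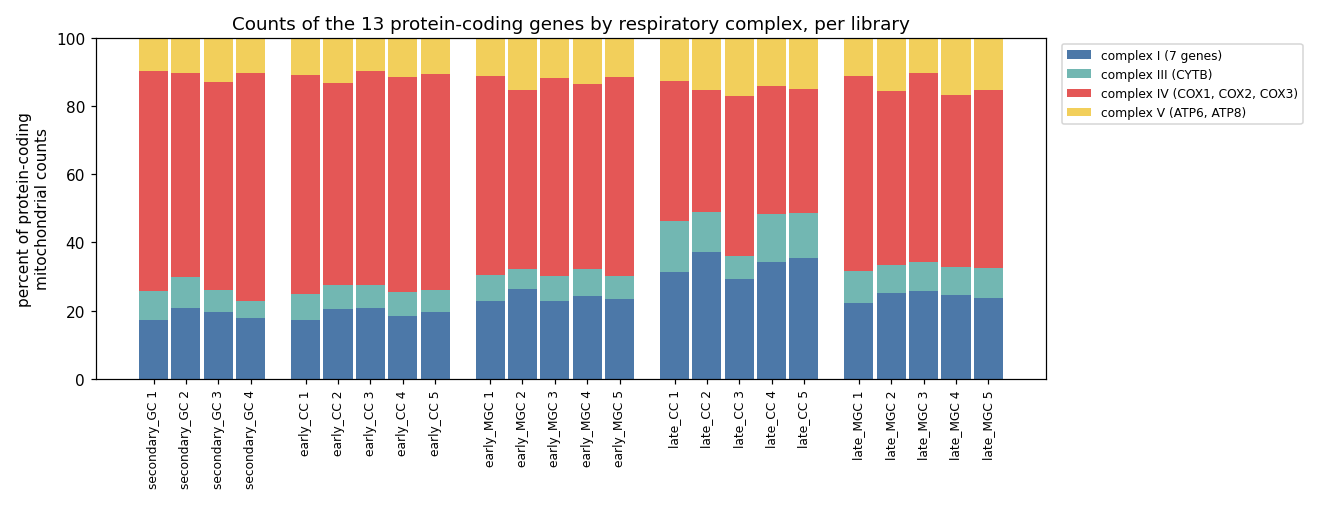
Percent of the counts of the 13 protein-coding mitochondrial genes that belong to complex I, III, IV and V, as 1 stacked bar per library. The complex IV part runs from 35.9% to 46.9% in late_CC and is at least 50.4% in every other library.

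Per kb of gene, the 12S rRNA was the most abundant member in secondary_GC (32221 ± 20609 CPM per kb), early_CC (17640.3 ± 3349) and late_MGC (46768 ± 18885). In late_CC the 16S rRNA had the higher mean (53188 ± 21763 against 43992 ± 16446 CPM per kb for 12S), and in early_MGC both were close (54246 ± 22978 against 58095 ± 29356), within their spread. COX3 was the highest protein-coding gene per kb in all 5 groups, from 9587 ± 3112 CPM per kb in late_CC to 21588 ± 9811 in secondary_GC. Next came COX1 and ATP6, whose order differed: in early_CC COX1 had 6366 ± 1287 CPM per kb and ATP6 5058 ± 897, in late_CC COX1 had 4691 ± 3031 and ATP6 8295 ± 3689.5. ND5, the longest of the genes, and ND4L stayed at the low end, with group means of 397 to 1506 and 349 to 1128 CPM per kb. ATP8 shares 40 bases with ATP6, ND4L shares 7 with ND4, and the counting defaults drop reads that overlap 2 genes, so the values of these genes are uncertain. The ATP8 to ATP6 ratio per kb was 0.107 ± 0.0387 in secondary_GC and 0.09798 ± 0.0204 in early_CC, but 0.282 ± 0.0697 in early_MGC, 0.2898 ± 0.0723 in late_CC and 0.211 ± 0.0369 in late_MGC. Every secondary_GC and early_CC library lay below every other library in that ratio.

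From early to late antral follicles, cumulus cells gained mitochondrial rRNA, complex I and CYTB transcripts, while the 3 COX genes did not pass the test. In late_CC against early_CC 15 of 32 tested members were called, 13 higher and 2 lower, in a comparison that called 45.2% of all genes tested (22.5% higher, 22.7% lower). The median log2 fold change was 1.11 over the 32 members and 0.04 over all genes. The 16S rRNA rose by 2.71 ± 0.45 (adjusted p = 3.62e-05) on the log2 scale and the 12S rRNA by 1.34 ± 0.40 (adjusted p = 0.00837). Among complex I subunits 6 of 7 rose: ND4L by 1.69 ± 0.46 (adjusted p = 0.00455), ND3 by 1.56 ± 0.50 (adjusted p = 0.0143), ND1 by 1.40 ± 0.37 (adjusted p = 0.00367), ND5 by 1.31 ± 0.43, ND2 by 1.26 ± 0.39 and ND4 by 1.06 ± 0.35. CYTB rose by 1.02 ± 0.39 (adjusted p = 0.0327). Of the complex V genes ATP8 rose by 2.39 ± 0.55 (adjusted p = 0.0012), and ATP6 stood at 0.73 ± 0.39 (adjusted p = 0.127). COX1 was at -0.41 ± 0.37 (adjusted p = 0.378), COX2 at -0.12 ± 0.42 and COX3 at -0.11 ± 0.39, none of them called. In CPM, 14 members lay higher without overlap between the 2 groups and 2 lower (16.1% and 19.3% of all genes), among them 10 of the 15 rRNA and protein-coding genes.

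ND4, a membrane subunit of complex I at 10529 to 11906 on MT (plus strand), shows the rise. It stood at 2355, 1921, 2878, 2701 and 1837 CPM in early_CC and at 4123, 5287, 5350.4, 5176 and 4394 CPM in late_CC, so the groups did not overlap. In secondary_GC it stood at 3018, 5934, 6004 and 1819.8 CPM, in early_MGC at 4279.7, 2862, 4758, 9713 and 2703 and in late_MGC at 3519.9, 4537, 4553, 3029 and 3017, which overlap late_CC. COX1, the catalytic core of complex IV at 5687 to 7231 (plus strand), differs from it. It stood at 10644, 7138, 11624, 11415 and 8353 CPM in early_CC and 5170.2, 4605, 15559, 6119 and 4782 CPM in late_CC: 4 of 5 late_CC libraries were below all of early_CC, and late_CC 3 was above all of them. The summed blood cell list, led by HBA in the group mean, stood at 31.4 to 72.2 CPM in the same 4 late_CC libraries and at 1.87 CPM in late_CC 3, with the other genes of the list at 0 or low, and its part in the result was not tested. Without late_CC 3 COX1 was called lower in late_CC, at -0.96 (adjusted p = 0.0199), and without all 3 libraries that stand apart at -0.96 (adjusted p = 0.00453). ND5 and ND3 lost their call without late_CC 3, at 0.78 (adjusted p = 0.102) and 1.13 (adjusted p = 0.0657), while the 16S rRNA kept its own at 2.39 (adjusted p = 0.000125). CYTB had its call lost without any one of early_CC 2, early_CC 5, late_CC 3 or late_CC 4 (adjusted p between 0.0502 and 0.0789). The ratio of COX1 to CYTB counts per kb was 0.814, 0.789, 2.59, 0.851 and 0.851 in late_CC, 3.07, 2.9001, 3.51, 3.11 and 3.62 in early_CC and 2.35, 2.72, 2.34, 2.46 and 2.56 in late_MGC. It was below 1 in 4 late_CC libraries and above 2 in late_CC 3 and in every library of the other groups.

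ND6 is the one protein-coding gene of the minus strand (13913 to 14440), a subunit of complex I that shares 17 bases with ND5. It stood at 819, 1327, 1918 and 529 CPM in secondary_GC, 685, 599.6, 990.1, 916 and 535 in early_CC, 1259, 1104, 1405, 3132 and 908 in early_MGC, 333, 557, 1839, 506 and 453 in late_CC and 655, 1043, 1180.0, 581 and 702 in late_MGC. Of the 5 late_CC libraries 3 were below all of early_CC, 1 was within its range and late_CC 3 was above it. Unlike the 6 other subunits it was not called in late_CC against early_CC, at 0.02 ± 0.46 (adjusted p = 0.971), a value whose sign differed between settings; when the 3 that stand apart were left out it was called lower, at -0.72 (adjusted p = 0.044). Per kb it exceeded its neighbour ND5 in every library, by a ratio of 3.64 ± 0.723 in early_CC and 2.64 ± 0.421 in secondary_GC, 2.08 ± 0.193 in late_MGC, 1.97 ± 0.291 in early_MGC and 1.34 ± 0.213 in late_CC. As counting ignored strand, this ratio cannot separate ND6 from transcripts of the plus strand across the same bases.

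**Figure D4:**
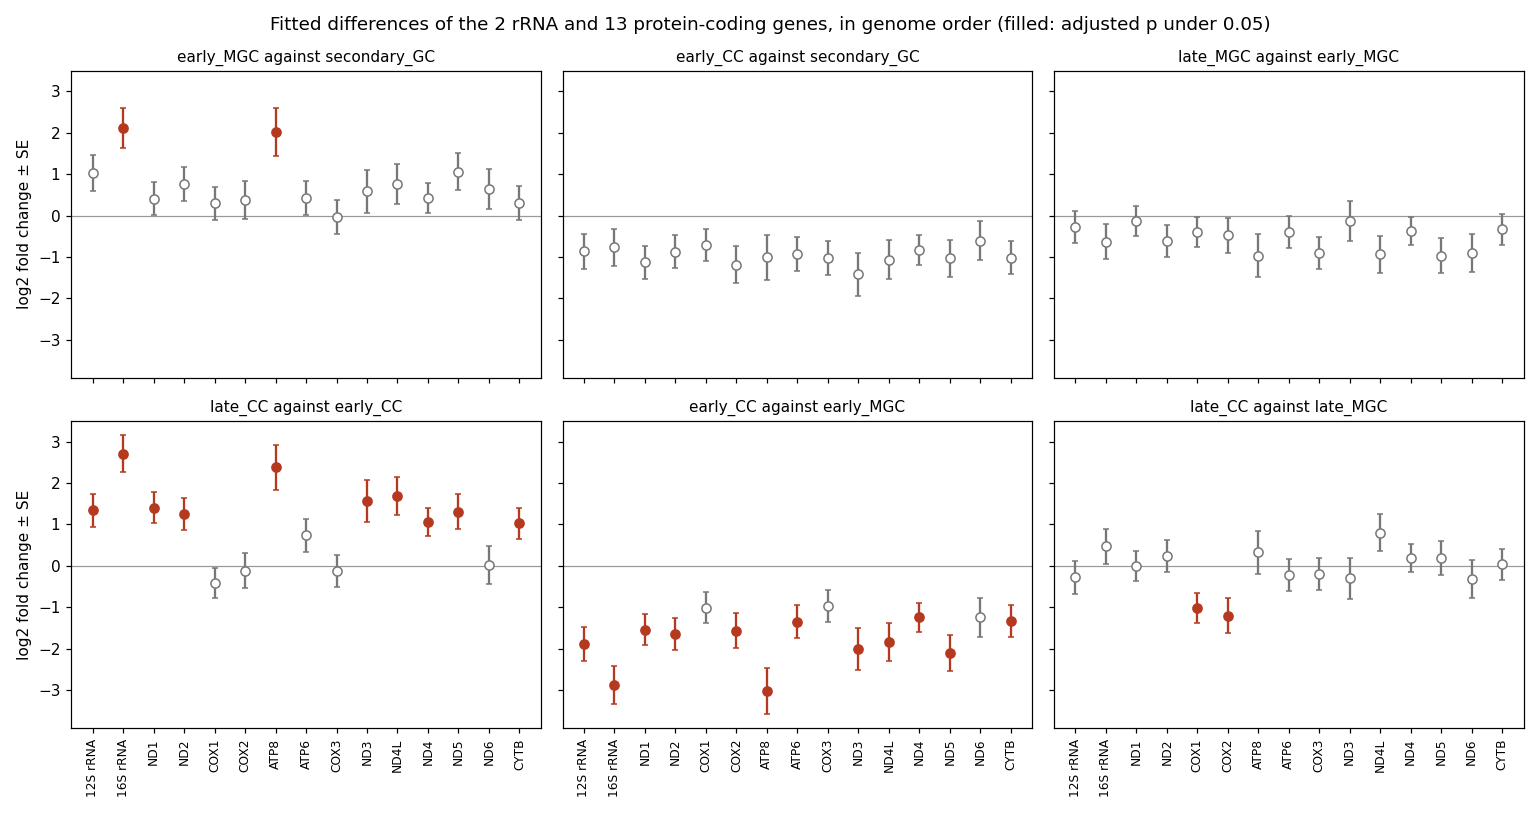
Log2 fold change ± SE of the 2 rRNA and 13 protein-coding mitochondrial genes in the 6 comparisons, in genome order. Filled points passed an adjusted p of 0.05. In late_CC against early_CC the rRNAs, 6 ND genes, ATP8 and CYTB lie above 0 and are filled and the 3 COX genes are open, while in early_CC against early_MGC all 15 genes lie below 0.

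Within early antral follicles, cumulus cells had lower levels than mural cells of both rRNAs, 10 of the 13 protein-coding transcripts and 5 of 17 tested tRNA genes. In early_CC against early_MGC 17 of 32 tested members were called and all 17 were lower, where 13.1% of all genes were called (6.70% higher, 6.39% lower). The median log2 fold change was -1.80 over the members and 0.01 over all genes, and over the members it was -0.995 without early_MGC 4 and -0.97 without the 3 libraries that stand apart. Both rRNAs were lower in early_CC, with a log2 fold change of -2.88 ± 0.45 (adjusted p = 0.000381) for the 16S and -1.90 ± 0.41 (adjusted p = 0.00383) for the 12S. Of complex I, 6 of 7 subunits were called lower, from ND5 at -2.10 ± 0.44 (adjusted p = 0.00319) to ND4 at -1.24 ± 0.35 (adjusted p = 0.0193). Also called lower were ATP8 at -3.03 ± 0.56 (adjusted p = 0.00149), ATP6 at -1.35 ± 0.39 (adjusted p = 0.0251), COX2 at -1.56 ± 0.43 (adjusted p = 0.0183) and CYTB at -1.32 ± 0.39 (adjusted p = 0.0254). COX1 at -1.01 ± 0.37 (adjusted p = 0.0714), COX3 at -0.97 ± 0.39 (adjusted p = 0.0994) and ND6 at -1.25 ± 0.46 (adjusted p = 0.0761) did not pass the test. In CPM, 11 members were lower in early_CC without overlap, 8 of them rRNA or protein-coding genes (4.83% of all genes). Much of the count rested on early_MGC 4, the library with the highest mitochondrial share. Among all libraries it also had the fewest counts (8379801) and the fewest genes detected (13921), whose part was not tested. Without it 7 members were called in place of 17, and ND4 stood at -0.72 (adjusted p = 0.131), ND3 at -1.33 (adjusted p = 0.0596), ND4L at -1.10 (adjusted p = 0.0614), CYTB at -0.74 (adjusted p = 0.169), ATP6 at -0.78 (adjusted p = 0.159) and COX2 at -0.94 (adjusted p = 0.111). The 16S rRNA at -2.56 (adjusted p = 0.00125), the 12S rRNA at -1.46 (adjusted p = 0.0193), ATP8 at -2.23 (adjusted p = 0.00458) and ND5 at -1.63 (adjusted p = 0.0136) were still called. Without early_CC 5 the count was 10, and without the 3 libraries that stand apart 11.

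Against secondary follicles, the mural cells of early antral follicles had more 16S rRNA, and the cumulus cells showed no called change. In early_MGC against secondary_GC 4 of 32 tested members were called, all higher, where 9.10% of all genes were called (5.01% higher, 4.08% lower). The 16S rRNA was higher by 2.11 ± 0.48 (adjusted p = 0.00837) on the log2 scale. It was the one member of the 32 without overlap in CPM, a share near that of all genes (3.23% lay higher without overlap). It held its call in 15 of 16 alternatives, and with the 2 groups fitted alone it missed the threshold (log2 fold change 2.13, adjusted p = 0.0755). The 12S rRNA stood at 1.03 ± 0.43 (adjusted p = 0.134). ATP8, a small subunit of ATP synthase at 8129 to 8329 on MT (plus strand), stood at 139, 129, 434 and 109.7 CPM in secondary_GC and 428, 366, 699.5, 1731 and 281 CPM in early_MGC. Secondary_GC 3 was inside the early_MGC range and the other 3 libraries below it, with early_MGC 4 the highest of all. In early_CC ATP8 stood at 131, 83.4, 72.8, 129 and 81.6 CPM, in late_CC at 210.5, 403, 1096, 408 and 441 and in late_MGC at 269, 541, 396, 373 and 246. Its log2 fold change of 2.02 ± 0.58 (adjusted p = 0.0341) was 1.22 (adjusted p = 0.129) without early_MGC 4, and the call was also lost without secondary_GC 1, 2 or 4, with no filter and with the 2 groups fitted alone, so that it held in 10 of 16 alternatives. The other 12 protein-coding genes were not called, and over all 13 the median log2 fold change was 0.43. Over all 32 tested members the median was 0.58, which turned to -0.12 without early_MGC 4 and was 0.27 without secondary_GC 1 and 0.33 without secondary_GC 4.

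In early_CC against secondary_GC 0 of 32 tested members were called by edgeR's quasi-likelihood test, where 1.99% of all genes were called (0.944% higher, 1.05% lower). At an unadjusted p under 0.05 there were 15 members, against 16.5% of all genes, with DESeq2 3 were called and with limma-voom 0. The median log2 fold change of the 13 protein-coding genes was -1.02, against 0.01 over all genes. Over all 32 tested members it was -0.98, and -0.58 without secondary_GC 3. Examples are COX2 at -1.19 ± 0.45 (adjusted p = 0.164) and ND3 at -1.42 ± 0.52 (adjusted p = 0.159). The secondary_GC libraries were spread widely: COX2 stood at 2661, 6984, 6617 and 1703 CPM there and at 1964, 1866, 2209, 2226 and 1489 in early_CC, so secondary_GC 4 was within the early_CC range and the other 3 above it. No member lay without overlap in this comparison (10.3% of all genes did). With all 3 libraries that stand apart left out of the fit, though they belong to other groups, 9 members were called lower. The share of all genes called in that refit is not given here.

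From early to late antral follicles, mural cells showed little called change in these genes. In late_MGC against early_MGC 1 of 32 tested members was called, tRNA gene 6, lower, where 19.1% of all genes were called (9.76% higher, 9.30% lower). The 15 rRNA and protein-coding genes had log2 fold changes from -0.97 to -0.13, all below 0 and none called. COX3 stood at 13562, 6167, 15358, 27711 and 7895 CPM in early_MGC and 8759.9, 7085, 11645, 5178 and 5123 in late_MGC, with overlap. The 16S rRNA was at -0.63 ± 0.42 (adjusted p = 0.319) and ND5 at -0.97 ± 0.42 (adjusted p = 0.112). With the 3 libraries that stand apart left out, some signs turned: the 12S rRNA was at 0.32 (adjusted p = 0.546) and ND1 at 0.37 (adjusted p = 0.46). No member lay without overlap in CPM (10.6% of all genes did). tRNA gene 22, not called here, overlapped through late_MGC 3 alone, at 406 CPM. Each other late_MGC library stood at 2.704 to 17.5 CPM for it, below all of early_MGC (59.4 to 92.04).

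In late antral follicles few mitochondrial transcripts were called between the 2 cell types, COX1 and COX2 and some tRNA genes among them. In late_CC against late_MGC 7 of 32 tested members were called, 2 higher and 5 lower, where 39.7% of all genes were called (18.9% higher, 20.8% lower), so the share of members called was below that of all genes. COX1 was lower in late_CC, with a log2 fold change of -1.02 ± 0.37 (adjusted p = 0.0309), and so was COX2, with -1.21 ± 0.43 (adjusted p = 0.027), while COX3 stood at -0.19 ± 0.39 (adjusted p = 0.728). COX1 stood at 12913, 16366, 15507, 9367 and 11346 CPM in late_MGC, above 4 of the 5 late_CC values given earlier and overlapping late_CC 3. Its call was lost without any one of late_CC 1, 2, 4 or 5 or late_MGC 1 or 2 (adjusted p between 0.058 and 0.0848), and without late_CC 3 it was -1.57 (adjusted p = 0.000617). The COX2 call was lost without any one of late_CC 1, 2, 4 or 5 or late_MGC 2 (adjusted p between 0.0504 and 0.0699). Complex I genes, CYTB and the rRNAs were not called: ND1 stood at -0.01 ± 0.37, CYTB at 0.03 ± 0.38, the 16S rRNA at 0.47 ± 0.42 and the 12S rRNA at -0.27 ± 0.40. ND4L was higher in CPM without overlap (298, 414, 303, 339 and 320.0 CPM in late_CC against 172, 197, 278, 90.6 and 110.3 in late_MGC), at 0.80 ± 0.45 (adjusted p = 0.165). It and tRNA gene 6 were the 2 such members (14.4% of all genes lay higher without overlap).

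The difference between the cell types in how stage acted was tested as an interaction, positive where the change from early to late was more positive in cumulus than in mural cells. It called 13 of 32 tested members, all positive, where 31.4% of all genes were called (14.5% positive, 16.9% negative). Both rRNAs were among them, the 16S at 3.34 ± 0.61 (adjusted p = 0.000247) and the 12S at 1.62 ± 0.56 (adjusted p = 0.0302). Of the protein-coding genes ATP8 (3.36 ± 0.75, adjusted p = 0.00188), ND4L (2.63 ± 0.64, adjusted p = 0.00352), ND5 (2.28 ± 0.60, adjusted p = 0.0056), ND2 (1.88 ± 0.54, adjusted p = 0.0104), ND1 (1.54 ± 0.52, adjusted p = 0.0269) and ND4 (1.43 ± 0.49, adjusted p = 0.0267) were called, and of the tRNA genes 3, 6, 9, 14 and 15. COX1 was at -0.01 ± 0.52 (adjusted p = 0.995), COX2 at 0.36 ± 0.59 (adjusted p = 0.69) and COX3 at 0.78 ± 0.55 (adjusted p = 0.289). Without early_MGC 4 the count was 8, with the 12S rRNA at 1.19 (adjusted p = 0.0936), ND1 at 1.01 (adjusted p = 0.0933), ND4 at 0.91 (adjusted p = 0.0964) and tRNA gene 6 at 2.22 (adjusted p = 0.0822), and the 16S rRNA still called at 3.03 (adjusted p = 0.000699). The comparisons share groups: early_CC enters 3 of the 6, so its low levels stand on one side of each.

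The tRNA genes are short, from 60 to 75 bases, and mature tRNAs have no poly(A) tail. They took 0.186% ± 0.0803 of mitochondrial counts in late_CC and 0.501% ± 0.0982 in early_CC, the lowest and highest group means. Most of these counts fell on the 8 tRNA genes of the minus strand: 94.5% ± 2.63 in secondary_GC, 91.3% ± 4.103 in early_CC, 84.5% ± 10.8 in early_MGC, 68.97% ± 12.6 in late_CC and 93.4% ± 2.08 in late_MGC. Since counting ignored strand, these values cannot be told from transcripts of the plus strand across the same bases. The most abundant tRNA gene was tRNA gene 12 (7229 to 7299, minus strand, overlapping the end of COX1 by 3 bases), at 313, 191, 505, 227 and 421 CPM on average in secondary_GC, early_CC, early_MGC, late_CC and late_MGC. It was not called in any comparison. Besides the genes described next, tRNA genes 3 (3024 to 3098, after the 16S rRNA), 13 (7304 to 7372, before COX2) and 17 (11907 to 11976, after ND4), all on the plus strand, were called lower in early_CC against early_MGC. Their log2 fold changes were -2.67 ± 0.90 (adjusted p = 0.0498), -1.89 ± 0.61 (adjusted p = 0.0415) and -2.53 ± 0.84 (adjusted p = 0.0468), at mean levels in early_MGC of 2.04 ± 2.53, 5.06 ± 6.20003 and 2.02 ± 2.05 CPM. Each call was lost without early_MGC 4 and also without any of several other libraries of these groups, with adjusted p between 0.0519 and 0.3297, adjusted p between 0.0697 and 0.498 and adjusted p between 0.0598 and 0.234 in these refits.

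tRNA gene 15 lies between COX3 and ND3 (9754 to 9822, plus strand) and had the largest called fold change of all members in late_CC against early_CC and in early_CC against early_MGC. It stood at 0.6297, 1.28, 2.91, 2.33 and 0.763 CPM in early_CC and 6.07, 41.5, 54.5, 28.5 and 45.9 in late_CC, without overlap. In early_MGC it stood at 11.98, 28.4, 29.6, 97.02 and 6.94 CPM, in late_MGC at 7.86, 12.8, 18.6, 13.2 and 8.26, and in secondary_GC at 0.395, 7.799, 5.81 and 0.862. Early_CC was the lowest of the antral groups, and early_MGC was above it in every library. The log2 fold change was 4.49 ± 0.86 (adjusted p = 0.000262) in late_CC against early_CC, -4.68 ± 0.87 (adjusted p = 0.00171) in early_CC against early_MGC, 3.52 ± 0.90 (adjusted p = 0.0195) in early_MGC against secondary_GC, and 6.05 ± 1.13 (adjusted p = 0.000449) for the interaction. The calls in late_CC against early_CC, in early_CC against early_MGC and for the interaction held in every alternative run, and that against secondary_GC was lost without secondary_GC 1, secondary_GC 4 or early_MGC 4.

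tRNA gene 14 lies between COX2 and ATP8 (8061 to 8127, plus strand) and had its highest mean in late_CC. It stood at 4.69, 7.22, 0.761, 9.48 and 11.6 CPM there, with late_CC 3 the low value, against 0.819, 0.408, 0.171, 0.776 and 0.1205 in early_CC and 1.22, 1.09, 2.04, 0.481 and 0.3795 in late_MGC. In early_MGC it stood at 0.926, 1.399, 0.779, 5.37 and 0.979 CPM and in secondary_GC at 0.247, 3.699, 2.98 and 0.5303 CPM. Both comparisons overlapped through late_CC 3, and both were called, at 3.80 ± 0.82 (adjusted p = 0.000559) and 2.47 ± 0.77 (adjusted p = 0.0126). tRNA gene 9, on the minus strand between ND2 and COX1 (5446 to 5518), moved alike, at 1.78 ± 0.69 (adjusted p = 0.0382) and 2.14 ± 0.71 (adjusted p = 0.0183), from 1.57 ± 0.895 CPM in early_CC and 1.11 ± 1.08 in late_MGC to 5.47 ± 2.46 in late_CC. Its call against early_CC was lost when any of 7 libraries was left out.

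tRNA genes 5 and 20, on the minus strand, were lower in late_CC. tRNA gene 5 (4123 to 4194, between ND1 and ND2) stood at 35.04, 56.3, 40.7, 73.5 and 38.2 CPM in early_CC, 10.6, 7.03, 32.9, 17.6 and 16.2 in late_CC and 67.5, 53.97, 136, 25.8 and 50.5 in late_MGC. Late_CC lay below early_CC in every library, and against late_MGC late_CC 3 overlapped. In early_MGC it stood at 77.8, 103, 74.8, 209.8 and 55.5 CPM and in secondary_GC at 25.9, 164, 134 and 30.7. The log2 fold change of late_CC was -1.51 ± 0.56 (adjusted p = 0.0314) against early_CC and -2.15 ± 0.57 (adjusted p = 0.00475) against late_MGC. For tRNA gene 20 (14441 to 14509, next to ND6) the values were -1.33 ± 0.51 (adjusted p = 0.0379) and -1.87 ± 0.52 (adjusted p = 0.0062). Both calls against early_CC were lost when any of 6 libraries was left out, with adjusted p between 0.052 and 0.119.

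The calls of 2 tRNA genes were lost without 1 library that stood far above the rest of its group. tRNA gene 6 (4197 to 4265, plus strand, before ND2) stood at 23.7, 32.8, 89.6, 577 and 10.02 CPM in early_MGC, with early_MGC 4 far above the other 4. It stood at 2.57, 21.7, 24.3 and 3.65 CPM in secondary_GC, 11.5, 42.7, 23.7, 15.3 and 4.98 in early_CC, 19.3, 41.1, 37.5, 21.8 and 24.2 in late_CC and 6.64, 11.7, 7.87, 14.5 and 17.7 in late_MGC. Without early_MGC 4 its log2 fold change went from 3.80 ± 1.09 (adjusted p = 0.0339) to 1.71 (adjusted p = 0.174) in early_MGC against secondary_GC, from -3.73 ± 0.98 (adjusted p = 0.0114) to -1.64 (adjusted p = 0.112) in late_MGC against early_MGC, and from -3.20 ± 0.96 (adjusted p = 0.0318) to -1.11 (adjusted p = 0.334) in early_CC against early_MGC. The first of these calls was also lost without secondary_GC 1, 2 or 4, and the third without early_CC 1, 3, 4 or 5. tRNA gene 22 (15726 to 15791, minus strand, after CYTB) stood at 17.5, 7.67, 406, 2.704 and 10.5 CPM in late_MGC, with late_MGC 3 the high value, and at 6.41, 11.3, 14.2, 10.6 and 9.65 in late_CC. The late_CC values lie within the range of the other 4 late_MGC libraries. It stood at 47.6, 38.8, 88.8 and 68.8 CPM in secondary_GC, 16.8, 48.4, 28.6, 32.7 and 41.5 in early_CC and 67.2, 92.04, 59.4, 73.2 and 61.2 in early_MGC, where early_CC lay below early_MGC without overlap. Late_CC lay below early_CC in every library, and every late_MGC library but late_MGC 3 lay below all of early_MGC. tRNA gene 22 was called in neither of these changes with stage. Its call in late_CC against late_MGC, -3.16 ± 0.91 (adjusted p = 0.00937), became -0.16 (adjusted p = 0.757) without late_MGC 3. Late_MGC 3 is also the library with the lowest granulosa marker level.

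**Figure D5:**
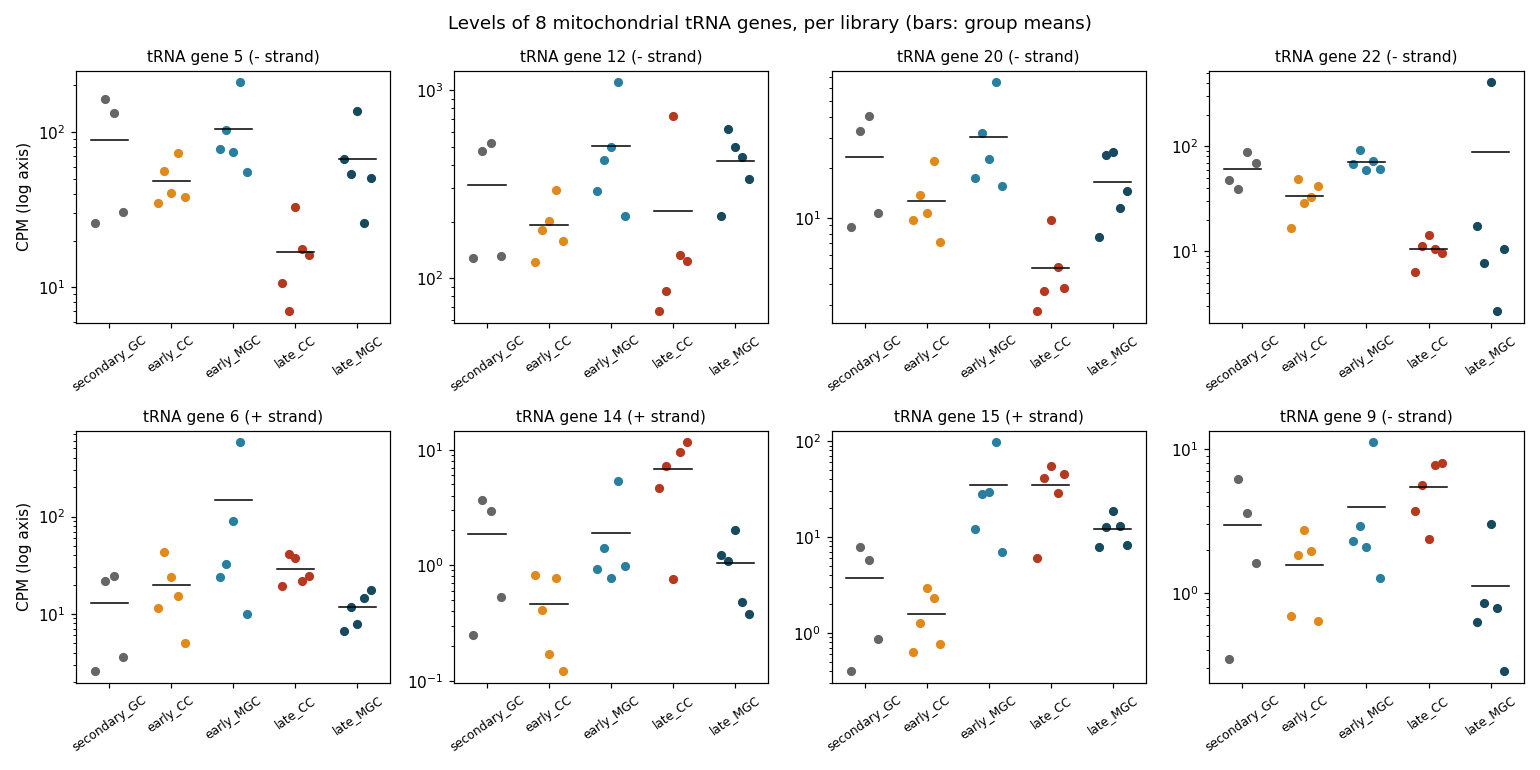
CPM of tRNA genes 5, 12, 20, 22, 6, 14, 15 and 9 by group on a log axis, with 1 dot per library and bars at the group means. tRNA gene 15 sits lowest among the antral groups in early_CC, tRNA genes 5 and 20 sit lowest in late_CC, early_MGC 4 reaches 577 CPM for tRNA gene 6 and late_MGC 3 406 CPM for tRNA gene 22.

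Nuclear genes that transcribe, process and translate the mitochondrial genome were taken from 6 lists of 80 genes, of which 74 matched a gene of the table and were tested. The transcription list holds 11 genes. TFAM packages mitochondrial DNA and helps start its transcription. It stood at 16.8 ± 3.29 CPM in early_CC and 17.7 ± 4.63 in secondary_GC against 35.4 ± 8.796 in early_MGC. Its log2 fold change was -1.17 ± 0.20 (adjusted p = 0.000705) in early_CC against early_MGC and 1.13 ± 0.22 (adjusted p = 0.00267) in early_MGC against secondary_GC. POLRMT, the mitochondrial RNA polymerase, rose in late_MGC against early_MGC by 1.50 ± 0.36 (adjusted p = 0.00438). In late_CC against early_CC 3 transcription genes rose and 1 fell, where 22.5% of all genes were called higher and 22.7% lower. LONP1, the matrix protease that degrades TFAM, rose by 0.81 ± 0.27 (adjusted p = 0.0146). TEFM, the elongation factor of the mitochondrial polymerase, fell by 1.48 on the log2 scale (adjusted p = 0.00533). The LONP1 call was lost with limma-voom (0.62, adjusted p = 0.0812), with the 2 groups fitted alone (0.77, adjusted p = 0.0596) and with the replicate block (0.76, adjusted p = 0.0584). In late_MGC against early_MGC 3 genes of this list were higher and 0 lower (9.76% and 9.30% of all genes). Early_CC against early_MGC had 1 higher and 2 lower (6.70% and 6.39% of all genes). Late_CC against late_MGC had 1 higher and 4 lower (18.9% and 20.8% of all genes). The share of the list called was below that of all genes in late_CC against early_CC and near it in late_CC against late_MGC. Against secondary_GC, early_MGC had 2 higher and 0 lower (5.01% and 4.08% of all genes) and early_CC none called (1.99% of all genes). The shares of all genes called, given above, apply to these counts and to those of the lists below.

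The list of RNA processing, polyadenylation and stability had 22 tested genes, and in late_CC against early_CC 5 rose and 10 fell, where 22.5% of all genes were called higher and 22.7% lower. HSD17B10, a subunit of the mitochondrial RNase P that cuts tRNAs out at their 5′ ends, fell from 227 ± 26.6 CPM in early_CC to 51.9 ± 10.1 CPM in late_CC, a log2 fold change of -2.10 ± 0.22 (adjusted p = 1.81e-07). ELAC2, which cuts at their 3′ ends, had -3.35 ± 1.03 (adjusted p = 0.01) at a level of 0.669 ± 0.704 CPM in early_CC, and its call was lost without early_CC 5 (adjusted p = 0.0511). MTPAP, the mitochondrial poly(A) polymerase, rose by 0.82 ± 0.24 (adjusted p = 0.00737), and PNPT1, an exoribonuclease of the same organelle, by 0.72 ± 0.22 (adjusted p = 0.00868). In late_CC against late_MGC 3 genes of this list were higher and 8 lower (18.9% and 20.8% of all genes). HSD17B10 was again lower, at -2.56 ± 0.23 (adjusted p = 1.96e-08), and MTPAP stood at 0.92 ± 0.24 (adjusted p = 0.00406). In the interaction 12 were negative and 0 positive, where 16.9% of all genes were negative, and the count ran from 7 to 12 when 1 library was left out. Late_MGC against early_MGC had 6 higher and 0 lower (9.76% and 9.30% of all genes). Among the 6 were TBRG4 (1.03 ± 0.23, adjusted p = 0.0024), which stabilises mitochondrial mRNAs, and the exonuclease REXO2 (1.51 ± 0.38, adjusted p = 0.00648). REXO2 had a smaller log2 fold change without late_MGC 3 (0.69, adjusted p = 0.0272), and its call was lost without the 3 libraries that stand apart (0.61, adjusted p = 0.0611) and with the 2 groups fitted alone (1.46, adjusted p = 0.085). Early_MGC against secondary_GC had 0 higher and 2 lower (5.01% and 4.08% of all genes). These were FASTK at -2.93 ± 0.85 (adjusted p = 0.0317) and the 12S rRNA methyltransferase NSUN4 at -2.04 ± 0.42 (adjusted p = 0.00419). The FASTK call was lost when any of 6 libraries was left out. Early_CC against secondary_GC had none called (1.99% of all genes). Early_CC against early_MGC had 1 higher and 0 lower (6.70% and 6.39% of all genes). This was MRM3 (1.38 ± 0.44, adjusted p = 0.039), a call lost when any of 7 libraries was left out (adjusted p between 0.0533 and 0.0941).

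Replication and copy number genes (10 tested) had no called change in early_MGC or early_CC against secondary_GC or in late_MGC against early_MGC. Beside the counts in this paragraph, 45.2% of all genes were called in late_CC against early_CC and 39.7% in late_CC against late_MGC. In late_MGC against early_MGC 19.1% were called, and in early_CC against early_MGC 13.1%. In late_CC against early_CC 1 rose and 4 fell: the primase PRIMPOL rose by 0.97 ± 0.24 (adjusted p = 0.00194), DGUOK, which supplies deoxyguanosine nucleotides, fell (-1.30 ± 0.20, adjusted p = 1.96e-05), and so did RNASEH1, which removes RNA from RNA-DNA hybrids (-1.26 ± 0.26, adjusted p = 0.000422). In late_CC against late_MGC 1 was higher and 3 lower, with SSBP1, the single-strand binding protein, at -1.56 ± 0.21 (adjusted p = 2.32e-06). In both of these comparisons the share of replication genes called was near that of all genes. Early_CC against early_MGC had 2 higher and 0 lower, RNASEH1 at 1.18 ± 0.26 (adjusted p = 0.00478) and PRIMPOL at 0.84 ± 0.24 (adjusted p = 0.0225), the latter lost without early_CC 1 or 3 or early_MGC 4 or 5 (adjusted p between 0.0503 and 0.0642). Of the 9 translation factors 2 rose and 3 fell in late_CC against early_CC, and 3 rose and 1 fell in late_MGC against early_MGC. The elongation factor TUFM rose in both, by 0.61 ± 0.17 (adjusted p = 0.00414) and 0.78 ± 0.17 (adjusted p = 0.0017), while TSFM, its exchange factor, fell in both, at -2.61 ± 0.28 (adjusted p = 2.12e-07) and -0.98 ± 0.26 (adjusted p = 0.0109). Of the 16 mitochondrial tRNA synthetases 3 rose and 0 fell in late_CC against early_CC, with LARS2 at 1.54 ± 0.42 (adjusted p = 0.00424) and YARS2 at 1.28 ± 0.33 (adjusted p = 0.00266). The share of synthetases called was below that of all genes. Of 6 nuclear regulators, NRF1, a transcription factor for nuclear genes of the respiratory chain, fell in late_CC against early_CC (-0.88 ± 0.29, adjusted p = 0.0162) and PPRC1 rose in late_MGC against early_MGC (0.65 ± 0.20, adjusted p = 0.0218). The NRF1 call was lost without late_CC 1 (adjusted p = 0.0678) and that of PPRC1 without early_MGC 1 or 5 or late_MGC 2 (adjusted p between 0.05899 and 0.0607).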

How the data were processed

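The deposited values are whole read counts for each gene, not normalized. Per the file headers the authors made them with featureCounts 2.0.0 on the exons of Ensembl release 105 for ARS-UCD1.2, with no option for strand, read pairs, multi-mapping reads or reads over several genes. Of earlier steps, the submitters' processing notes name HISAT2 2.1.0, fastp 0.20.0, SAMtools 1.10 and the build bosTau9. The other deposited values used are gene lengths. An undetermined column (8.30% of counts) was left out. Libraries of secondary_GC and late_MGC are numbered by column order. No libraries were copies: over 46 pairs within groups, chi-square per degree of freedom was at least 16.5.

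Symbols came by position from RefSeq ARS-UCD2.0 (spans overlapping by at least 0.5 of their union, each the other's best match, or identical). Start and end were identical for 37 of 37 mitochondrial genes. A symbol of a nuclear gene can be wrong.

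The quasi-likelihood test of edgeR 4.0.16 (R 4.3.3; TMM, filterByExpr, robust, all 24 libraries in 1 fit by group) was run on the counts, checked on simulated data, with SE taken from the test statistic. Biological variation, as a coefficient, was 42.4%. Alternatives were RLE scaling, scaling from nuclear genes, no filter, DESeq2 1.42.0, voom of limma 3.58.1, the groups alone, leaving out libraries and a replicate block. Members, gene lists and the naming rule (all 37 members, per-library values for those a result turns on, and up to 2 called genes in each direction per list, of which some are named) were chosen with earlier results of these data known. Alternatives for the nuclear genes were chosen after seeing the data. Reads carry no molecular identifiers, so limits cover counting error.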

Additional observations from a re-analysis of the deposited data

Results flagged for a closer look

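A library that lay far from the rest of its group by Dixon's criterion was found in 29 of 140 sets of a quantity in a group, over 26 members, the summed share and the ratio of 16S to 12S rRNA, each in 5 groups. Chance flags about 1 in 20 groups where values are normally distributed, which CPM need not be, and members of 1 library are not independent. All flagged values lay above the rest of their group. The mean of the other libraries of the group stands in parentheses. Library early_MGC 4 was high for tRNA gene 3 at 6.56 CPM (0.906), ND1 at 4971 CPM (1883), tRNA gene 6 at 577 CPM (39.04), ND2 at 4724 CPM (1852), tRNA gene 9 at 11.1 CPM (2.14), tRNA gene 13 at 16.1 CPM (2.29), COX2 at 10914 CPM (3582), tRNA gene 14 at 5.37 CPM (1.02), ATP8 at 1731 CPM (444), ATP6 at 15898 CPM (5649.8), tRNA gene 15 at 97.02 CPM (19.2), ND3 at 2785 CPM (854), tRNA gene 17 at 5.61 CPM (1.12) and ND6 at 3132 CPM (1169). Library late_CC 3 was high for 12S rRNA at 69198 CPM (35216), COX1 at 15559 CPM (5169), tRNA gene 12 at 727 CPM (102), COX2 at 3494 CPM (1325), ATP8 at 1096 CPM (366), ATP6 at 10035 CPM (4552), COX3 at 11715 CPM (6431), ND3 at 1987 CPM (792), ND5 at 3748 CPM (1269.5) and ND6 at 1839 CPM (462), and the 37 genes held 27.7% of its counts (13.9%). Library late_MGC 3 was high for tRNA gene 9 at 2.9996 CPM (0.634) and tRNA gene 22 at 406 CPM (9.59), library late_MGC 2 for ATP6 at 8012 CPM (5244), and library secondary_GC 3 for ATP8 at 434 CPM (126).

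For 13 members the change from early to late antral follicles differed between cumulus and mural cells by the interaction in edgeR's quasi-likelihood test (31.4% of all genes were called). The log2 difference of the changes, cumulus minus mural, was 1.62 for 12S rRNA, 3.34 for 16S rRNA, 3.69 for tRNA gene 3, 1.54 for ND1, 4.31 for tRNA gene 6, 1.88 for ND2, 3.65 for tRNA gene 9, 4.63 for tRNA gene 14, 3.36 for ATP8, 6.05 for tRNA gene 15, 2.63 for ND4L, 1.43 for ND4 and 2.28 for ND5. In late_CC against early_CC and late_MGC against early_MGC the 16S rRNA had 2.71 and -0.63, ATP8 2.39 and -0.97, and tRNA gene 15 4.49 and -1.56.

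The table also holds a column of undetermined reads, which belongs to no sample and entered no comparison. Of its 41567882 counts 12.1% fell in the 37 mitochondrial genes.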

How the results depend on the processing

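Other scalings moved the median log2 fold change of all genes by at most 0.06. Calls that held in every alternative run numbered 0 of 4 in early_MGC against secondary_GC, 0 of 1 in late_MGC against early_MGC, 9 of 15 in late_CC against early_CC, 7 of 17 in early_CC against early_MGC, 4 of 7 in late_CC against late_MGC and 8 of 13 for the interaction. Of the tRNA genes 5 of 22 had counts too low to be tested. Without the 3 libraries that stand apart 9 members were called in early_CC against secondary_GC and 11 in early_CC against early_MGC. With no filter 2 members were called in early_MGC against secondary_GC. DESeq2 called 3 in early_CC against secondary_GC and 2 in late_MGC against early_MGC, where limma-voom called 0. With the groups of a comparison alone the counts were 0 in early_MGC against secondary_GC, 1 in early_CC against secondary_GC and 0 in late_MGC against early_MGC. Where the cause is not in the setting itself it was not tested. Shares of all genes called under the alternatives are not given, here or above. A change in these counts can therefore not be told from a change over all genes. Leaving out 1 library gave counts of 1 to 6, 0 to 2, 0 to 3, 11 to 15, 7 to 18, 5 to 9 and 8 to 16 in, by turns, the comparison of early_MGC with secondary_GC, of early_CC with secondary_GC, of late_MGC with early_MGC, of late_CC with early_CC, of early_CC with early_MGC, of late_CC with late_MGC, and the interaction. The libraries that moved a count by over 1.5 times were secondary_GC 1, 2 and 4 and early_MGC 4 in early_MGC against secondary_GC (1 to 2 calls), and secondary_GC 1 in early_CC against secondary_GC (2). They were early_MGC 2, 4 and 5 and late_MGC 3 in late_MGC against early_MGC (0 to 3), early_CC 5 (10) and early_MGC 4 (7) in early_CC against early_MGC, and early_MGC 4 for the interaction (8). The group means of the mitochondrial share ran over 8.81% to 13.5%, 5.95% to 6.397%, 16.8% to 22.8%, 13.9% to 17.97% and 12.6% to 15.4% in secondary_GC, early_CC, early_MGC, late_CC and late_MGC when 1 library was left out. Restricted to the 13 protein-coding genes they were 6.11%, 3.19%, 6.58%, 4.06% and 4.54%.

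The labels do not say whether same-numbered libraries share more than a number. The correlation of their deviations ran from -0.21 to 0.38 over 15 pairs, 4 of them over 0.1. In 4 of 15 cases a library correlated best with its own number among the libraries of another group. These cases were early_CC 1 with early_MGC and with late_CC, early_CC 2 with early_MGC, and early_MGC 1 with late_CC. Between libraries of number 1 the correlation was 0.37 for early_CC with early_MGC, 0.32 for early_CC with late_CC and 0.38 for early_MGC with late_CC. The remaining pair over 0.1 was early_CC 2 with early_MGC 2, at 0.29. A shared origin of such libraries was not tested. With the replicate number as a block 20 members were called in late_CC against early_CC (17 higher, 3 lower) and 20 in early_CC against early_MGC, and ND6 stood at -0.14 in late_CC against early_CC. No paired analysis was possible for the comparisons with late_MGC because its columns carry no number, and none was run with secondary_GC, whose column numbers are not those of its labels.

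Log2 fold changes that reversed were all of members not called in the reported fit. Under RLE scaling they were ND1 0.0074 in late_CC against late_MGC, COX1 0.054 for the interaction. Scaled from genes outside the mitochondrial genome, ND6 -0.021 in late_CC against early_CC. With no filter, ND6 -0.057 in late_CC against early_CC, CYTB -0.036 in late_CC against late_MGC. With DESeq2, ND1 0.0074 in late_CC against late_MGC, COX1 0.054 for the interaction. With limma-voom, ND1 0.0405 and ND3 0.12 in late_MGC against early_MGC, ND6 -0.26 in late_CC against early_CC, COX2 -0.00069 for the interaction. With the groups alone, ND6 -0.0078 in late_CC against early_CC, ND1 0.0022 in late_CC against late_MGC, COX1 0.055 for the interaction. Without the 3 libraries that stand apart they were ND1 -0.12, COX1 -0.13, COX2 -0.25, ATP6 -0.14, ND3 -0.086, ND4 -0.11 and CYTB -0.28 in early_MGC against secondary_GC, 12S rRNA 0.32, ND1 0.37, COX2 0.094, ATP6 0.21, ND3 0.56, ND4 0.11 and CYTB 0.20 in late_MGC against early_MGC, ND6 -0.72 in late_CC against early_CC, 16S rRNA -0.0056, ATP8 -0.22 and ND5 -0.26 in late_CC against late_MGC, COX2 -0.68 and ND6 -0.24 for the interaction. When 1 library was left out, ranges that crossed 0 follow. In early_MGC against secondary_GC COX3 -0.55 to 0.25, CYTB -0.28 to 0.63, ND1 -0.12 to 0.86, COX1 -0.13 to 0.50, COX2 -0.24 to 0.67, ATP6 -0.14 to 0.83, ND3 -0.085 to 1.09 and ND4 -0.11 to 0.68. In late_MGC against early_MGC 12S rRNA -0.48 to 0.16, ND1 -0.32 to 0.39, COX1 -0.56 to 0.016, COX2 -0.67 to 0.14, ATP6 -0.59 to 0.17, ND3 -0.34 to 0.54, ND4 -0.56 to 0.15 and CYTB -0.52 to 0.25. In late_CC against early_CC ND6 -0.72 to 0.26, COX3 -0.38 to 0.0066 and COX2 -0.58 to 0.012. In late_CC against late_MGC ND1 -0.063 to 0.068, ND2 -0.031 to 0.55, ATP8 -0.22 to 0.56, ND5 -0.35 to 0.36 and CYTB -0.063 to 0.097. For the interaction COX1 -0.55 to 0.16 and COX2 -0.26 to 0.55.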
